A study of Mus musculus with 9 samples.

Results

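Autophagy and lysosome genes were followed through cisplatin injury of the mouse kidney cortex and treatment with a herbal decoction. The set holds 41 genes, chosen by name for what their proteins do, out of 17963 genes in the deposited table, and a gene was measured by summing its transcripts. It covers 3 genes of the kinase complex that starts autophagy, 3 of membrane nucleation and supply, 5 of the conjugation machinery, 5 of the ATG8 family, 3 cargo receptors, 3 genes of mitophagy, 2 transcription factors, 4 lysosomal membrane proteins, 2 proton pump subunits, 6 cathepsins, and 5 glycosidases and lipases.

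RNA was sequenced from 9 libraries of kidney cortex on day 4, with 3 libraries in each of 3 groups of wild-type mice. Control mice had saline by intraperitoneal injection and pure water into the stomach. Cisplatin mice had cisplatin, a platinum drug that injures the renal tubule, by intraperitoneal injection, and pure water. YSJZD mice had cisplatin and, into the stomach, Yishen Jiangzhuo decoction (YSJZD), a herbal medicine, so both injured groups share the cisplatin injection. The sources used here give no strain, age or dose. They do not say that each library came from its own mouse either, so a p-value reflects only how far these libraries spread, which may be technical.

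In autophagy a double membrane grows around cytoplasm, closes into an autophagosome and fuses with a lysosome, where acid hydrolases digest the contents. Small ubiquitin-like proteins of the ATG8 family, among them LC3 and GABARAP, are attached to the growing membrane and hold cargo receptors such as p62 there. TFEB and TFE3 are transcription factors that bind the E-box CACGTG near the start of many lysosomal genes. In the proximal tubule, which takes up filtered protein and is rich in lysosomes, loss of autophagy is known to worsen cisplatin injury. RNA levels do not measure autophagic flux.

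The promoters are shown first because the genes were chosen by name and not by their sequence. As many lysosomal genes are known to hold E-boxes, that choice is not independent of them. RefSeq promoters (GRCm38.p6, 250 bases before to 50 bases after a start) were at hand for 33 of the 41 genes. The E-box CACGTG, which reads the same on both strands, was in the promoters of 14 of the 33 genes (42.4%) and of 11.3% of the tested genes with a promoter. Among the lysosomal members 9 of 14 held it, and among the other members 5 of 19. Outside the set it was in 9 of 45 other lysosome genes and 4 of 35 other autophagy genes with a promoter. Among other proton pump genes 3 of 15 held it, and among nutrient sensing genes 5 of 32. The longer TCACGTGA, each copy of which also contains CACGTG, was in 6 of the 33 genes (18.2%) and in 2.05% of tested genes. Outside the set it was in 3 of 45 lysosome genes and 1 of 35 autophagy genes. The other proton pump genes held it in 2 of 15 and the nutrient sensing genes in 0 of 32. Extended by a further G before and C after, it was in 0 of 33 and in 0.73% of tested genes. The windows of 30 bases below show TCACGTGA in capitals, each on the gene's strand, from chrX:134601182-134601211 and chrX:134601215-134601244 (Gla, minus), chr7:142387908-142387937 (Ctsd, minus), chr16:44139373-44139402 (Atp6v1a, minus), chr8:3500462-3500491 (Mcoln1, plus) and chr16:45158746-45158775 (Atg3, plus).
Gla, nearer copy: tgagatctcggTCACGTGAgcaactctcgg
Gla, farther copy: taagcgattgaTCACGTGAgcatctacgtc
Ctsd: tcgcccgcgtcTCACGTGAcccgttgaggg
Atp6v1a: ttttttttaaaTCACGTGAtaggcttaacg
Mcoln1: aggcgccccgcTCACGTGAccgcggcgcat
Atg3: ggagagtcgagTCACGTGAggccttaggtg
Ctsa, the sixth gene, held its copies at the transcription start. With cisplatin 2 of these 6 genes rose (Gla and Ctsd), 3 fell (Atp6v1a, Mcoln1 and Atg3) and Ctsa did not pass. The call of Mcoln1 was lost in some alternative runs, given below. In the same comparison 28.6% of all tested genes rose and 26.0% fell. A match is a string of letters and was not tested as a binding site.

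Library totals lay between 15029286 and 16690482 expected counts. The 13954 genes tested in edgeR included all 41 members, and calls rest on Benjamini-Hochberg adjustment over those genes with 0.05 as the threshold. Levels of a gene across libraries are in CPM, counts scaled to a common library total after TMM adjustment, levels of different genes are compared in FPKM, which also divides by length, and a log2 fold change is given ± its standard error. Proximal tubule markers were abundant in control at a summed 73030 to 93310 CPM for 14 genes. They stood at 5002 to 7508 CPM with cisplatin and 19540 to 39530 CPM with YSJZD, and 13 of the 14 fell with cisplatin. The summed 14 macrophage markers stood at 137.5 to 200.7 CPM in control, 1346 to 3154 with cisplatin and 444.5 to 786.3 with YSJZD. The summed 10 neutrophil markers stood at 1.39 to 1.53, 59.0 to 184 and 4.45 to 10.6 CPM, with Trem1 at 0 counts in control. In bulk tissue fewer cells of a type and less RNA per cell cannot be told apart, and the part of these cells in the results below was not tested. Cisplatin replicate 3 stood apart in endothelial markers, where its median gene was -1.001 from control on the log2 scale and the other cisplatin libraries were at 0.14 and 0.01. It also had the highest summed tubular injury markers, at 36770 CPM against 15400 and 23610.

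**Figure D1:**
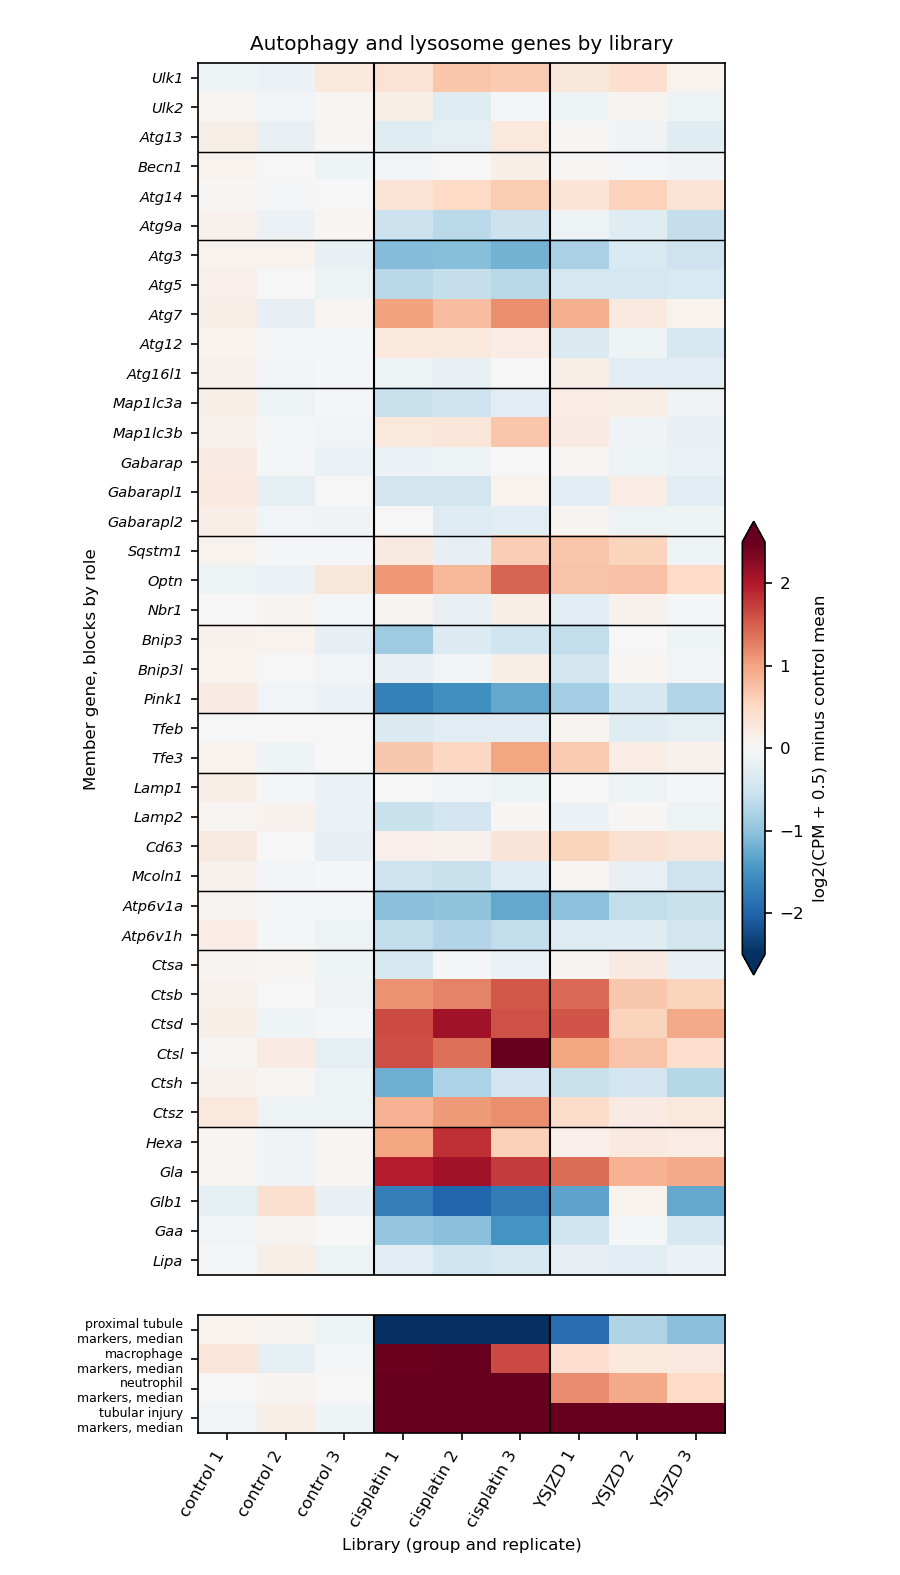
Level of each of the 41 genes in each of the 9 libraries as log2(CPM + 0.5) minus the control mean (colour, limited to ±2.5), in blocks by role, with the medians of 4 marker lists below. Within 1 block colours differ in sign, as in the cathepsins, where Ctsb, Ctsd, Ctsl and Ctsz are red with cisplatin and Ctsh is blue.

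Cisplatin was first set against control, to see how the drug altered these genes by day 4. They moved in both directions: 12 rose, 13 fell and 16 did not pass. Among all tested genes 28.6% rose and 26.0% fell, and the members' shares were 29.3% and 31.7%. The members' median log2 fold change was -0.08, against 0.04 over all tested genes. Cathepsins and 2 glycosidases gave the highest rises, and Glb1 (beta-galactosidase), Pink1 (the mitophagy kinase), Gaa (acid alpha-glucosidase), Atg3 (the LC3-conjugating enzyme) and the proton pump subunit Atp6v1a the lowest values. Scaled by library totals alone, the median of all genes was 0.27, and 14 members rose and 9 fell. Without cisplatin replicate 3 the counts were 11 and 13.

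**Figure D2:**
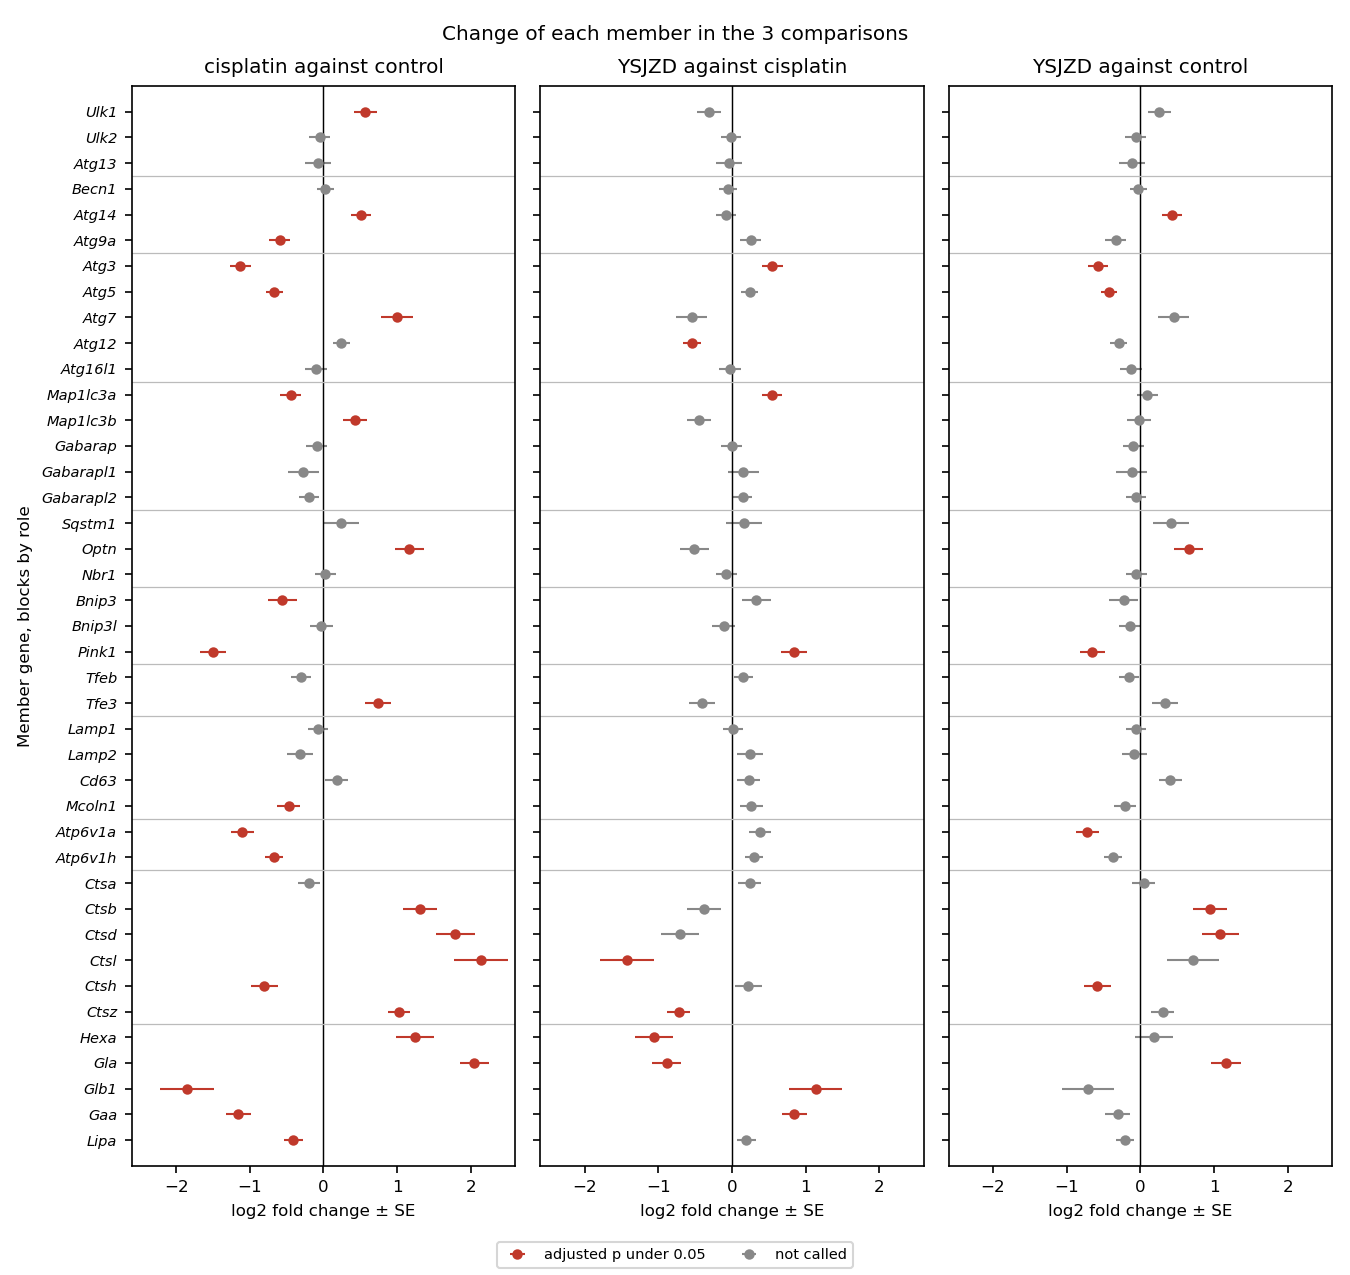
Log2 fold change (points) with its standard error (bars) of each member in the 3 comparisons, red where the adjusted p was under 0.05. The widest spread is in cisplatin against control, from -1.85 for Glb1 to 2.14 for Ctsl.

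Of the kinase complex that starts autophagy 1 of 3 genes rose with cisplatin. Ulk1 (Entrez gene 22241), the kinase itself, stood at 83.5, 81.8 and 108 CPM in control, 116, 146 and 143 with cisplatin and 110, 121 and 95.9 with YSJZD. Control and cisplatin did not overlap, for a log2 fold change of 0.57 ± 0.16 (adjusted p = 0.012, and 0.0545 without control replicate 2). Its homologue Ulk2 (-0.05 ± 0.14) and the adaptor Atg13 (-0.08 ± 0.18) did not pass.

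Among the genes of nucleation and membrane supply, Becn1 (0.02 ± 0.12), which encodes Beclin 1, a regulator of the lipid kinase VPS34, did not pass. Atg14, which directs that kinase to autophagosome formation, rose from 18.5 ± 0.439 (SD, n = 3) to 26.3 ± 2.69 CPM (0.51 ± 0.14). Atg9a, a membrane protein of the vesicles that seed autophagosomes, fell from 86.1 ± 7.69 to 57.1 ± 3.35 CPM (-0.59 ± 0.14).

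The conjugation enzymes split. Atg3 (Entrez gene 67841), which passes LC3 to the lipid, stood at 64.0, 64.6 and 53.3 CPM in control, 28.2, 28.5 and 26.5 with cisplatin and 34.0, 46.0 and 41.8 with YSJZD. Its groups formed 3 ranges without overlap, lowest with cisplatin (-1.13 ± 0.14, adjusted p = 0.000106). Atg5, part of the complex that directs this step, fell as well (-0.67 ± 0.11). Atg7 (Entrez gene 74244), the activating enzyme of the same pathway, went the other way. It stood at 32.7, 25.6 and 30.3 CPM in control, 59.6, 50.6 and 66.7 with cisplatin and 55.1, 34.7 and 31.2 with YSJZD, and cisplatin was above control in every library (1.00 ± 0.21, adjusted p = 0.00284). Atg12 (0.24 ± 0.12), which is joined to ATG5, and Atg16l1 (-0.10 ± 0.15), their partner, did not pass. Atg12 passed with libraries scaled by totals (0.48, adjusted p = 0.00657).

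In the ATG8 family 1 gene rose, 1 fell and 3 did not pass. Map1lc3b (Entrez gene 67443), which encodes LC3B, stood at 177, 159 and 155 CPM in control, 196, 201 and 264 with cisplatin and 188, 153 and 144 with YSJZD. Cisplatin lay above control without overlap, with the highest value in replicate 3 (0.43 ± 0.16, adjusted p = 0.0421). Map1lc3a (Entrez gene 66734), for LC3A, stood at 80.7, 66.7 and 71.5 CPM in control, 49.0, 50.9 and 60.8 with cisplatin and 83.4, 82.0 and 68.5 with YSJZD. Here cisplatin lay below both other groups (-0.45 ± 0.14, adjusted p = 0.0198). Both are small changes whose calls did not hold in every run, and a run with 1 library left out has fewer samples. The log2 fold change of Map1lc3b was 0.49, 0.40 and 0.39 without control replicates 1, 2 and 3, and 0.28 without cisplatin replicate 3. For Map1lc3a it was -0.37 without control replicate 1, and -0.38 and -0.41 without cisplatin replicates 1 and 2. The adjusted p of Map1lc3b was 0.0579, 0.118, 0.118 and 0.138 without control replicates 1, 2 and 3 and cisplatin replicate 3, 0.0525 with no filter, and 0.0627 with the replicate number as a block. That of Map1lc3a was 0.0732, 0.0713 and 0.066 without control replicate 1 and cisplatin replicates 1 and 2, and 0.138 with libraries scaled by totals.

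The GABARAP branch of the family overlapped between control and cisplatin. Gabarap stood at 517, 428 and 399.4 CPM in control, 402, 409.5 and 451 with cisplatin and 456, 409 and 395 with YSJZD (-0.09 ± 0.14). Gabarapl1 stood at 592, 420.2 and 501 CPM, 362, 361 and 529.8, and 411, 569.9 and 411 in the same order (-0.27 ± 0.21). Gabarapl2 stood at 128, 108 and 108 CPM, 113, 91.3 and 94.5, and 119, 105 and 106 (-0.20 ± 0.13). Per length, Gabarap was the most abundant of the family in control at 419.5 ± 33.0 FPKM (SD, n = 3), ahead of Gabarapl1 at 282 ± 40.04, Gabarapl2 at 126 ± 6.2, Map1lc3b at 95.3 ± 2.15 and Map1lc3a at 74.5 ± 5.2.

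Of the cargo receptors, which tie ubiquitinated cargo to ATG8 proteins, 1 of 3 rose. Optn (Entrez gene 71648), optineurin, stood at 10.8, 10.8 and 14.6 CPM in control, 26.0, 21.8 and 33.5 with cisplatin and 20.0, 20.1 and 16.9 with YSJZD. The groups did not overlap, with cisplatin highest and YSJZD between (1.17 ± 0.20, adjusted p = 0.0007). Sqstm1 (Entrez gene 18412), which encodes p62, stood at 659.8, 593 and 601 CPM in control, 717, 536 and 943 with cisplatin and 993, 909.8 and 563 with YSJZD. It spread more within the injured groups than between groups (0.24 ± 0.24, adjusted p = 0.422). Nbr1 (Entrez gene 17966) stood at 215, 227 and 210.3 CPM in control, 229, 192 and 243 with cisplatin and 182, 235 and 211 with YSJZD, which overlapped throughout (0.02 ± 0.14).

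Pink1 (Entrez gene 68943), the kinase that marks damaged mitochondria for autophagy, had the largest fall among the autophagy genes of the set. It stood at 417, 347 and 328 CPM in control, 112, 125.1 and 149 with cisplatin and 199.5, 274 and 219 with YSJZD. The 3 groups did not overlap, and the fall with cisplatin was 2.83-fold (-1.50 ± 0.17, adjusted p = 6.1e-05). Bnip3, a mitophagy receptor of the outer membrane, fell from 224 ± 25.6 to 152 ± 28.8 CPM (-0.56 ± 0.20, adjusted p = 0.0343). That call was lost without control replicates 1 and 2 (0.0981 and 0.0909) and cisplatin replicates 1 and 3 (0.119 and 0.0588), and with libraries scaled by totals (0.165). Its relative Bnip3l did not pass (-0.03 ± 0.15).

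The transcription factors of the lysosomal gene network differed. Tfe3 (Entrez gene 209446) stood at 47.5, 41.4 and 45.1 CPM in control, 71.1, 64.0 and 88.6 with cisplatin and 70.8, 50.6 and 48.1 with YSJZD, and cisplatin was above control in every library (0.74 ± 0.18, adjusted p = 0.00525). Tfeb (Entrez gene 21425) stood at 30.8, 30.6 and 31.0 CPM in control, 24.0, 25.4 and 25.3 with cisplatin and 32.2, 24.9 and 26.0 with YSJZD. Cisplatin lay below control without overlap, but the difference missed the threshold (-0.31 ± 0.13, adjusted p = 0.0729).

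The abundant lysosomal membrane proteins changed little. Lamp1 (-0.07 ± 0.14) and Lamp2 (-0.32 ± 0.18), the main glycoproteins of the lysosomal wall, and the tetraspanin Cd63 (0.18 ± 0.16) did not pass. Per length these were the 3 most abundant members in control, with Cd63 at 1156 ± 99.6 FPKM, Lamp1 at 679.6 ± 33.5 and Lamp2 at 483 ± 33.2. Mcoln1, the calcium channel of the lysosome, fell from 60.6 ± 4.2 to 43.7 ± 3.8 CPM (-0.47 ± 0.15, adjusted p = 0.0234). Its call was lost without control replicate 1 (0.0799), cisplatin replicate 1 (0.0665) and cisplatin replicate 2 (0.0788), and with libraries scaled by totals (0.158). Lamp2 passed without cisplatin replicate 3 (-0.53, adjusted p = 0.017), and Cd63 passed with libraries scaled by totals (0.41, 0.0197).

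Of the proton pump that acidifies the lysosome, both subunits in the set fell. Of the 20 other pump genes, given below, 2 rose, 6 fell and 12 did not pass. Atp6v1a (Entrez gene 11964), the ATP-cleaving subunit, stood at 690.1, 649.7 and 642 CPM in control, 320.5, 329 and 273 with cisplatin and 324, 432 and 447 with YSJZD. Cisplatin and control did not overlap (-1.10 ± 0.16, adjusted p = 0.000209). Atp6v1h, a regulatory subunit, fell from 129.7 ± 14.7 to 81.7 ± 3.9 CPM (-0.67 ± 0.12, adjusted p = 0.00117). Intercalated cells, which carry this pump at their surface, gave a summed 582 to 694 CPM for 10 markers in control and 371 to 566 with cisplatin. Among these markers Atp6v1b1, Atp6v0d2, Atp6v1g3 and Atp6v0a4 are themselves pump subunits. Atp6v0a4 alone had a mean of 330.8 CPM in control and 258.8 with cisplatin. The sum is therefore not a reading of these cells separate from pump RNA.

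Of the 6 cathepsins, the proteases of the lysosome, 4 rose, 1 fell and 1 did not pass. Ctsd (Entrez gene 13033), an aspartic protease, stood at 811, 687 and 719.7 CPM in control, 2299, 3160 and 2217 with cisplatin and 2201, 1090 and 1415 with YSJZD. Cisplatin was above control in every library by a fitted 3.46-fold (1.79 ± 0.26, adjusted p = 0.00025). Ctsb (Entrez gene 13030), a cysteine protease, stood at 847, 784 and 747 CPM in control, 1728, 1874 and 2310 with cisplatin and 2119, 1270 and 1166 with YSJZD. It showed the same order of groups as Ctsd, with YSJZD replicate 1 inside the cisplatin range (1.31 ± 0.23, adjusted p = 0.000878).

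Ctsl (Entrez gene 13039), another cysteine protease, stood at 371, 419 and 314 CPM in control, 1120, 955 and 2789 with cisplatin and 720.5, 602 and 491 with YSJZD. All cisplatin libraries were above control, and replicate 3, the library with the highest injury markers, stood far above the others (2.14 ± 0.37, adjusted p = 0.000781). Without it the rise was 1.49 (adjusted p = 0.00019). Ctsz (Entrez gene 64138), a carboxypeptidase, stood at 226, 174 and 172 CPM in control, 345.4, 396.5 and 423.5 with cisplatin and 259, 218.5 and 228 with YSJZD, and rose without overlap (1.03 ± 0.15, adjusted p = 0.00031). Ctsh, an aminopeptidase, went against these 4, from 349 ± 27.5 to 199.9 ± 50.3 CPM (-0.81 ± 0.18, adjusted p = 0.00381). Ctsa, a carboxypeptidase that also protects beta-galactosidase, did not pass (-0.20 ± 0.15).

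Summed over the 6 cathepsins the level was 3031, 2818 and 2628 CPM in control, 5932, 6964 and 8330 with cisplatin and 5939, 3878 and 3853 with YSJZD. Among the YSJZD libraries the high replicate 1 also had the lowest proximal tubule sum (19540 CPM), the highest macrophage sum (786.3) and the highest injury sum (17530 against 12520 and 14120). Per length the cathepsins changed rank among the members. Ctsd went from rank 6 in control (373 ± 20.8 FPKM) to rank 2 with cisplatin (1518 ± 357), and Ctsl from rank 9 (223 ± 28.8) to rank 4 (1113 ± 624), where its SD is wide.

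**Figure D3:**
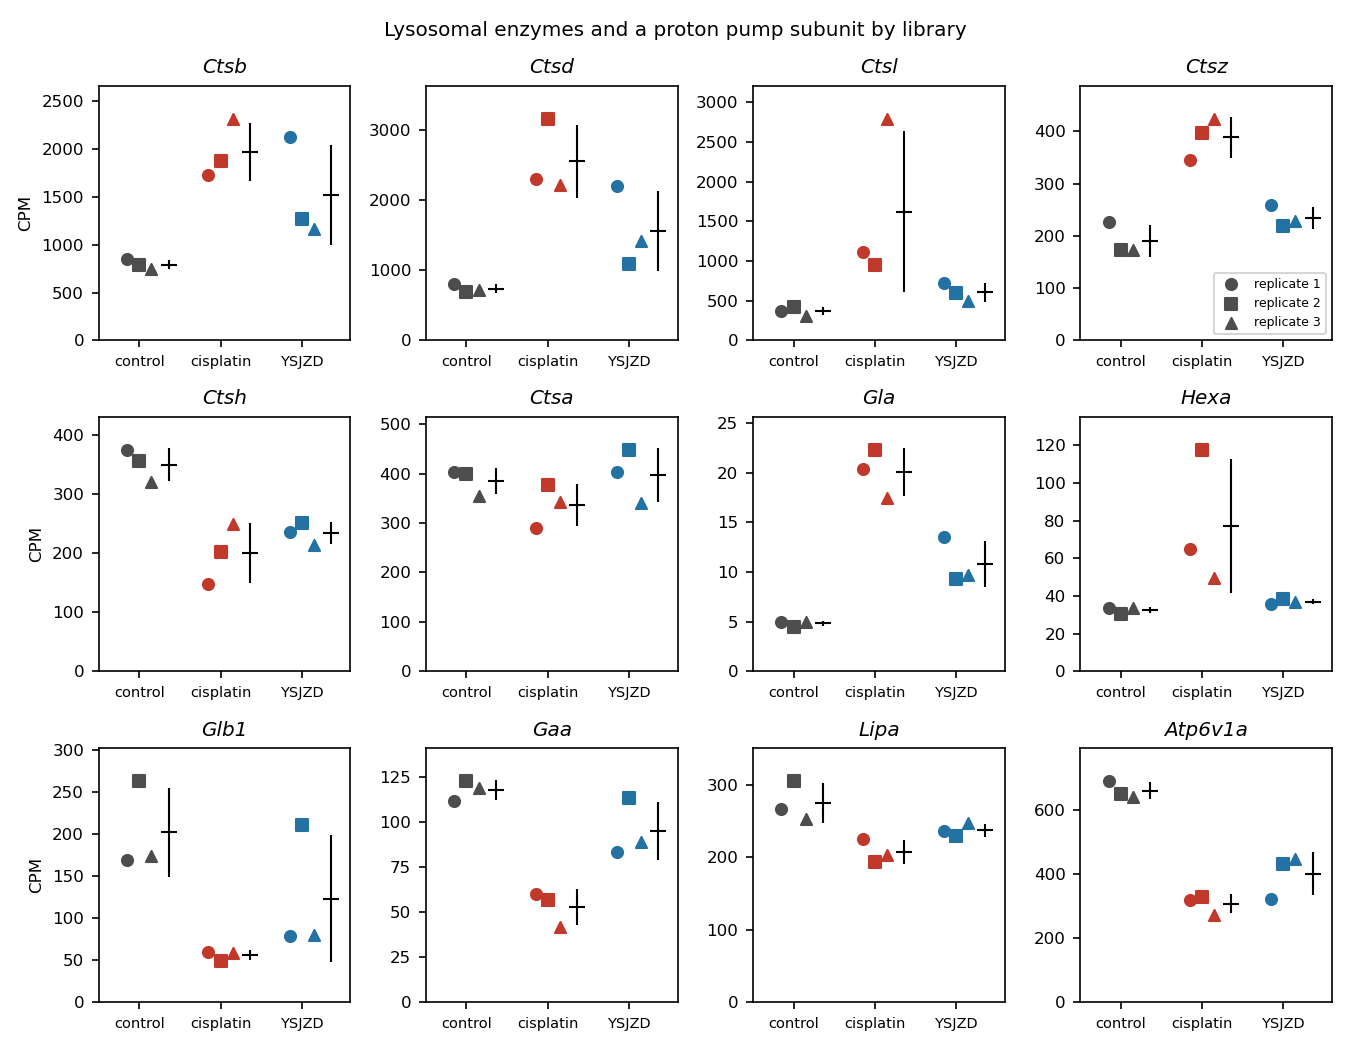
CPM of 11 lysosomal enzymes and of the proton pump subunit Atp6v1a in each library (marker shape gives the replicate, colour the group), with mean and SD as a bar beside each group. The 3 cisplatin libraries of Gla sit between 17.4 and 22.3 CPM, above both other groups, and those of Gaa between 41.6 and 60.1, below both.

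The glycosidases and the lipase split 2 against 3. Gla (Entrez gene 11605), alpha-galactosidase A, stood at 5.02, 4.52 and 4.97 CPM in control, 20.4, 22.3 and 17.4 with cisplatin and 13.5, 9.25 and 9.73 with YSJZD. It was the least abundant member per length in all 3 groups, and its groups did not overlap (2.05 ± 0.20, adjusted p = 2.32e-05). Hexa (Entrez gene 15211), the alpha subunit of hexosaminidase, stood at 33.5, 30.7 and 33.6 CPM in control, 65.0, 117 and 49.5 with cisplatin and 35.8, 38.5 and 36.9 with YSJZD. Cisplatin lay above control without overlap (1.25 ± 0.26, adjusted p = 0.00244). The macrophage sums of cisplatin replicates 1, 2 and 3 were 1346, 3154 and 2507 CPM. Hexa and this sum were both highest in replicate 2, while Hexa was lowest in replicate 3 and the sum in replicate 1. A link between them was not tested.

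Glb1 (Entrez gene 12091), beta-galactosidase, stood at 169, 262.5 and 173 CPM in control, 59.8, 49.5 and 58.6 with cisplatin and 78.5, 210.5 and 80.6 with YSJZD. Every cisplatin library was below control (-1.85 ± 0.36, adjusted p = 0.00164), while YSJZD replicate 2 lay in the control range and the other YSJZD libraries did not. Gaa (Entrez gene 14387) stood at 112, 123 and 119 CPM in control, 60.1, 56.8 and 41.6 with cisplatin and 83.2, 113 and 89.0 with YSJZD, with cisplatin lowest (-1.16 ± 0.17, adjusted p = 0.000282). Lipa, acid lipase, fell from 275 ± 27.2 to 207 ± 16.8 CPM (-0.41 ± 0.13, adjusted p = 0.0195), which was lost without control replicate 2 (0.0882) or cisplatin replicate 2 (0.0751) and with libraries scaled by totals (0.286). Glb1 shares exon bases on the same strand with Tmppe, Ctsd with Gm49369, Ctsl with a processed pseudogene and Atg9a with Gm29253. Pink1 does so with Gm27646 and Mir7019. Part of the reads of these members may therefore be divided among the genes they overlap. In all, 12 members overlap an exon of another protein-coding gene in GENCODE M21, and the sources used here do not say whether counting used strand.

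The comparison of YSJZD with cisplatin asks how the decoction changed the injured cortex. It called 5 members higher, 5 lower and 31 not, where 17.4% of all tested genes rose and 18.0% fell. As a share of the 41 members, 12.2% moved each way, and the median log2 fold change was 0.01 against -0.01 over all genes. Higher with YSJZD were Glb1 (1.14 ± 0.36, adjusted p = 0.0312), Gaa (0.85 ± 0.17, 0.00412), Pink1 (0.84 ± 0.17, 0.00434), Atg3 (0.55 ± 0.14, 0.0135) and Map1lc3a (0.54 ± 0.14, 0.0134). Lower were Ctsl (-1.42 ± 0.36, 0.013), Hexa (-1.06 ± 0.26, 0.0106), Gla (-0.89 ± 0.19, 0.006), Ctsz (-0.72 ± 0.15, 0.0053) and Atg12 (-0.54 ± 0.12, 0.00678). Except for Atg12 each of these had been called in the opposite direction with cisplatin against control. Both comparisons use the same cisplatin libraries, so the opposite signs are not independent of each other.

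Several of these calls did not hold with 1 library left out, a run that also has fewer samples. Glb1 was 0.51 (adjusted p = 0.0975) without YSJZD replicate 2, whose proximal tubule sum was the highest of the group at 39530 CPM. It also missed the threshold without cisplatin replicates 1, 2 and 3 (0.0654, 0.0886 and 0.0603). There its log2 fold change was 1.19, 1.05 and 1.17, near the 1.14 of the full fit. Ctsl was -0.78 (0.0123) without cisplatin replicate 3. It missed the threshold without YSJZD replicate 3 (-1.29, 0.0538), and Atg3 missed it without YSJZD replicate 2 (0.45, 0.0546). Ctsd missed the threshold with all libraries (-0.71 ± 0.25, adjusted p = 0.0524) and passed without YSJZD replicate 1 (-1.03, 0.0074) and without cisplatin replicate 3 (-0.81, 0.0443), as well as in DESeq2 (0.0193), with DESeq2 size factors (0.0495), with library totals (0.0443) and with a filter at 5 CPM (0.0433). Under the last 4 of these settings Map1lc3b passed too (0.0317, 0.0495, 0.0211 and 0.0328), Atg7 passed with library totals (0.047) and with the replicate number as a block (0.0433), and Atp6v1a in DESeq2 (0.0481). Ctsb (-0.69, 0.0152), Atg7 (-0.84, 0.00557), Map1lc3b (-0.57, 0.0243), Tfe3 (-0.59, 0.0186) and Atp6v1a (0.52, 0.0163) also passed without YSJZD replicate 1, and Optn (-0.65, 0.0369) without cisplatin replicate 2. The counts were thus 6 higher and 10 lower without YSJZD replicate 1, 3 higher and 5 lower without YSJZD replicate 2, and 4 higher and 6 lower without cisplatin replicate 3. Scaled by library totals they were 5 and 8.

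Against control, which asks what remained changed in the treated mice, YSJZD left 5 members higher, 5 lower and 31 not called. Of all tested genes 9.93% were higher and 9.37% lower, against 12.2% each way among the members. Higher were Gla (1.16 ± 0.20, adjusted p = 0.00348), Ctsd (1.09 ± 0.25, 0.0148), Ctsb (0.94 ± 0.23, 0.0184), Optn (0.65 ± 0.20, 0.044) and Atg14 (0.43 ± 0.14, 0.0499). Lower were Atp6v1a (-0.72 ± 0.15, 0.00976), Pink1 (-0.66 ± 0.17, 0.0231), Ctsh (-0.58 ± 0.18, 0.0481), Atg3 (-0.58 ± 0.14, 0.0174) and Atg5 (-0.43 ± 0.11, 0.0254). All 10 had been called in the same direction with cisplatin, and the 2 comparisons share the control libraries.

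Only Gla and Atp6v1a kept this call in every alternative run. With 1 library left out the adjusted p rose to 0.148 for Atg14, 0.147 for Ctsh, 0.144 for Optn, 0.0949 for Atg5, 0.0877 for Pink1, 0.0709 for Atg3, 0.0656 for Ctsb and 0.0613 for Ctsd. The call was lost for Atg14 and Ctsh whichever library was left out, for Atg5 and Optn except without control replicate 3, for Pink1 except without control replicate 3 or YSJZD replicate 2, for Atg3 without control replicate 1 or 2, for Ctsb without any 1 control library, and for Ctsd without control replicate 2 or 3. The counts fell to as few as 1 higher and 1 lower, without control replicate 2, and were 2 and 1 without control replicate 1, 2 and 4 without control replicate 3, 3 and 2 without YSJZD replicate 1 or 3, and 3 and 4 without YSJZD replicate 2. They were 3 and 4 with the replicate number as a block. Scaled by library totals 9 were higher and 2 lower, as the median of all genes was then 0.20. Ctsl passed with the 6 libraries alone (0.73, adjusted p = 0.0212), and Atp6v1h in DESeq2 (-0.39, 0.0186) and with a filter at 5 CPM (-0.37, 0.0438). Glb1, which did not pass with all libraries (-0.71 ± 0.35), was -1.34 (adjusted p = 0.00413) without YSJZD replicate 2.

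Transcripts within genes were described with no test. In 14 members at least 2 RefSeq transcripts each held 10% or more of the gene's counts in a group, and Nbr1 and Tfeb, chosen after their values were seen, had the widest shifts. Nbr1, whose total did not move, changed in makeup. Its transcript NM_008676 held 70.2%, 66.7% and 73.4% of the gene's counts in control, 36.9%, 31.1% and 37.1% with cisplatin and 56.7%, 57.1% and 66.2% with YSJZD. NM_001252222 held 7.6%, 15.3% and 9.11% in control, 39.0%, 45.9% and 37.8% with cisplatin and 24.0%, 21.4% and 18.5% with YSJZD. The 3 groups did not overlap for either transcript, with YSJZD between the others.

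In GENCODE M21 (GRCm38) NM_001252222 lacks exon 17 of the 24 exons of NM_008676, which is coding, holds 111 bases and lies at chr11:101572462-101572572 on the plus strand, so that its coding length is 2853 in place of 2964 bases. It is printed because it is 1 of the 2 stretches in which these transcripts differ, in capitals with 10 bases of each neighbouring exon.
Nbr1 exon: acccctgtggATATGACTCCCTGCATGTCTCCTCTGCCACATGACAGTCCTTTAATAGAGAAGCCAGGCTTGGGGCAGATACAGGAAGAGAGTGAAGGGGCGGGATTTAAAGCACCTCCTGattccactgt
The other stretch is the first exon, which starts 204 bases later in NM_001252222. NM_001252223, which has that later start and this exon but lacks another of 106 bases, held 6.39%, 2.31% and 2.78% in control, 15.4%, 8.26% and 7.33% with cisplatin and 4.32%, 4.9% and 3.45% with YSJZD. The table of counts does not show which stretch the dividing reads covered.

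Tfeb gives the contrast of a division that varied between libraries of 1 group. Its transcript XM_006524007 held 34.4%, 52.7% and 0.0025% with cisplatin, and XM_006524003 held 0%, 0% and 75.2% in the same libraries. The total of the gene varied far less, from 24.0 to 25.4 CPM. In Atg3 the transcript XM_006522495 held 32.8%, 30.8% and 29.3% in control, 51.2%, 45.3% and 42.3% with cisplatin and 36.6%, 37.8% and 41.1% with YSJZD, so that control and cisplatin did not overlap. Atg3 was not alone in this, as Sqstm1 and Atg16l1 also had transcripts whose shares did not overlap. In Atg16l1 NM_029846 held 37.4%, 33.2% and 28.5% in control and 18.2%, 23.8% and 22.8% with cisplatin.

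**Figure D4:**
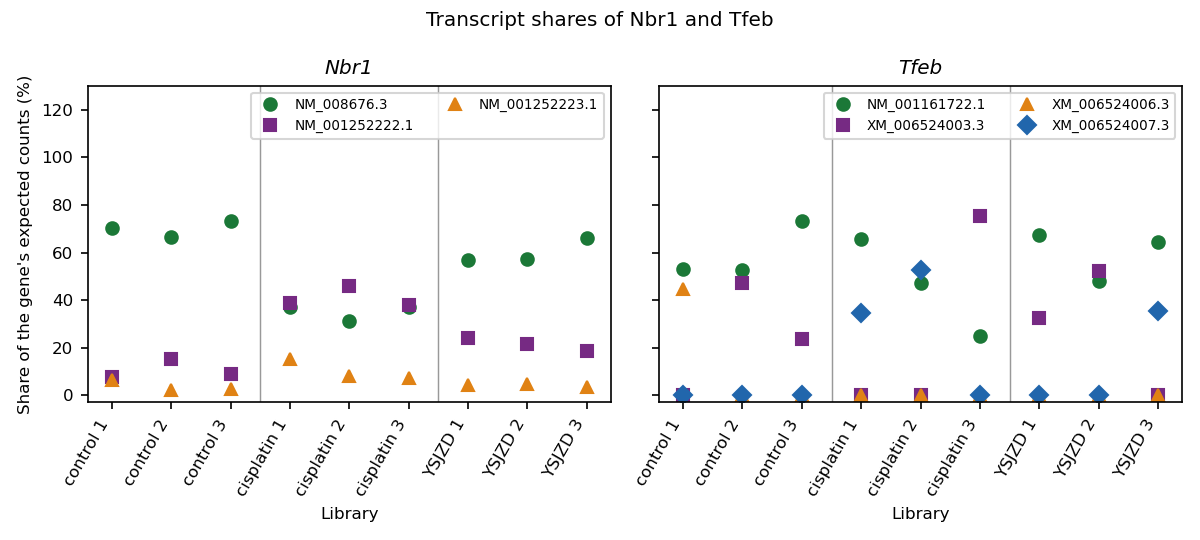
Share of the gene's expected counts in each named RefSeq transcript (points) of Nbr1 and Tfeb in each library, in percent. The shares of NM_008676 and NM_001252222 of Nbr1 do not overlap between groups, while those of NM_001252223 overlap between control and YSJZD. The shares of Tfeb jump between libraries of the same group, from 0 to over 75%.

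The other genes of the pathway came from lists of 40 autophagy, 56 lysosome, 20 proton pump and 34 nutrient sensing genes in the table, all tested. With cisplatin 9 of the 40 other autophagy genes rose and 10 fell. Vmp1 (1.52 ± 0.21), an endoplasmic reticulum protein of autophagosome formation, Atg4a (1.00 ± 0.15), a protease that trims ATG8 proteins, and Wipi1 (0.98 ± 0.25), a lipid-binding scaffold, had the highest rises. Among those that fell were the conjugating enzyme Atg10 (-1.97 ± 0.32) and the protease Atg4d (-1.01 ± 0.13). With YSJZD against cisplatin 6 were higher, among them Atg10 (1.21 ± 0.32), the ferritin receptor Ncoa4 (0.76 ± 0.22) and Atg4d (0.55 ± 0.13). Another 5 were lower, among them Wipi1 (-0.95 ± 0.25), the VPS34 subunit Nrbf2 (-0.71 ± 0.19) and the tethering protein Tecpr1 (-0.64 ± 0.18). Against control YSJZD had 2 higher, Vmp1 (0.96 ± 0.20) and Atg4a (0.49 ± 0.15), and 5 lower, among them Wipi2 (-0.59 ± 0.12) and the fusion protein Snap29 (-0.57 ± 0.12).

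Among the 56 other lysosome genes 13 rose (23.2%) and 22 fell (39.3%) with cisplatin, against 28.6% and 26.0% of all tested genes. Their median log2 fold change was -0.21, against 0.04 over all tested genes. With YSJZD against cisplatin 30.4% were higher and 14.3% lower, against 17.4% and 18.0% of all genes. Against control the shares were 10.7% and 17.9%, against 9.93% and 9.37%. The highest rises were in Cd68 (4.74 ± 0.34), itself 1 of the macrophage markers, in Ctss (4.16 ± 0.59), a cathepsin of antigen-presenting cells, and in Ctsc (2.57 ± 0.26), which activates granule proteases of white blood cells. Ctss stood at 107.9, 320.6 and 51.0 CPM in the cisplatin libraries, where the macrophage sums were 1346, 3154 and 2507 CPM. Both were highest in replicate 2, while Ctss was lowest in replicate 3 and the sum in replicate 1. The mean of Ctss was 8.96 CPM in control and 12.3 with YSJZD. Among the genes that fell were Smpd1 (-1.83 ± 0.19), acid sphingomyelinase, and Arsb (-1.81 ± 0.16), a sulfatase. YSJZD against cisplatin had 17 higher and 8 lower, with Neu1 (1.09 ± 0.13), a sialidase, and Naglu (1.07 ± 0.19), a glucosaminidase, among the higher and Ctss (-3.70 ± 0.58), Cd68 (-2.93 ± 0.30) and Ctsc (-1.43 ± 0.25) the lowest. Against control 6 were higher, led by Cd68 (1.82 ± 0.32), Ctsc (1.13 ± 0.25) and the protease legumain Lgmn (1.07 ± 0.18), and 10 lower, led by Gusb (-1.62 ± 0.24), beta-glucuronidase, Smpd1 (-1.16 ± 0.19) and Arsb (-0.92 ± 0.16).

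Of the 20 other proton pump genes 2 rose and 6 fell with cisplatin. Atp6v0a1 (1.02 ± 0.23), a subunit found widely, and Atp6v0d2 (0.72 ± 0.23), also 1 of the intercalated cell markers, rose, and Atp6v1b1 (-1.84 ± 0.25), an isoform on the same marker list, Atp6v1c2 (-1.66 ± 0.22) and Atp6v0e2 (-0.98 ± 0.12) had the largest falls. With YSJZD against cisplatin 3 were higher, Atp6v1c2 (1.47 ± 0.22), Atp6v1b1 (1.47 ± 0.25) and Atp6v1c1 (0.54 ± 0.12), and 0 lower in edgeR, where 2 were lower at an unadjusted p under 0.05 and 2 in DESeq2. Against control 0 were higher, with 1 at an unadjusted p under 0.05 and 0 in DESeq2, and 3 lower, namely Atp6v0e2 (-0.71 ± 0.12), Atp6v0a2 (-0.68 ± 0.12) and Atp6v1e1 (-0.49 ± 0.14).

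Upstream, 10 of the 34 nutrient sensing genes rose (29.4%) and 7 fell (20.6%) with cisplatin, against 28.6% and 26.0% of all tested genes. With YSJZD against cisplatin 14.7% were higher and 11.8% lower, against 17.4% and 18.0% of all genes. Against control the shares were 23.5% and 5.88%, against 9.93% and 9.37%. The mTORC1 inhibitors Ddit4 (2.32 ± 0.25), Sesn2 (1.20 ± 0.21) and Sesn3 (1.17 ± 0.34) rose most among those at 10 CPM or more. Flcn (-1.28 ± 0.20), folliculin, which controls how mTORC1 acts on TFEB, the Ragulator subunit Lamtor5 (-1.17 ± 0.17) and the AMPK subunit Prkaa2 (-0.90 ± 0.17) fell most. YSJZD against cisplatin had 5 higher, led by Flcn (1.25 ± 0.20), the mTOR inhibitor Deptor (0.71 ± 0.14) and Lamtor2 (0.60 ± 0.18), and 4 lower, among them Ddit4 (-1.71 ± 0.25), Tsc1 (-0.58 ± 0.19) and Prkaa1 (-0.33 ± 0.11). Against control 8 were higher, among them Sesn2 (1.32 ± 0.21), the AMPK subunit Prkab1 (0.85 ± 0.15) and the small GTPase Rragd (0.69 ± 0.15), and 2 lower, Mtor (-0.66 ± 0.14) and Lamtor5 (-0.65 ± 0.17). Trib3, a stress-induced pseudokinase below 10 CPM in every group and named after its values were seen, lay beyond the genes named above in 3 of these directions, at 3.50 ± 0.43 with cisplatin, -2.02 ± 0.39 with YSJZD against cisplatin and 1.48 ± 0.44 against control.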

How the data were processed

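Per the file headers, the table the authors deposited gives read counts for each RefSeq transcript beside Entrez gene numbers. RSEM 1.3.1 is named in the submitters' processing notes, so these were read to be expected counts, and DESeq2 1.4.5 and GRCh38, a human build, are named beside it. Aligner and mouse build: not given in the sources used here. The other deposited columns, taken to be the authors' FPKM because of their values, served to order genes by level and to take the transcript shares a further time. Transcripts were added up per gene, giving 17963 genes, and rounded, and RSEM divides reads between similar transcripts. All 9 libraries were fitted in edgeR 4.0.16 (R 4.3.3) with filterByExpr, TMM and a quasi-likelihood fit on group, after the code was tested on simulated counts. Alternatives were other scalings and filters, DESeq2 1.42.0, the 6 libraries compared alone, the replicate number as a block, and each library left out. Named genes are all 41 members, with every library's value for those called at 2-fold or more and for ATG8, receptor and transcription factor genes. Of each other list they are the 3 highest and 3 lowest called genes that reached 10 CPM on average in a group, apart from some that are not reported here. Members, lists, tests and alternatives were chosen with earlier results of these data known. Promoters are RefSeq's and the exon is GENCODE's.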

Additional observations from a re-analysis of the deposited data

How the results depend on the processing

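Of the 25 members called in cisplatin against control 19 kept their call under every alternative run, as did 7 of 10 in YSJZD against cisplatin and 2 of 10 in YSJZD against control, and no called member changed sign. Scaling by library totals gave 8 members lower in YSJZD against cisplatin, and 9 higher and 2 lower in YSJZD against control. Same-numbered libraries did not deviate together (correlations from -0.20 to 0.09), so the numbers were not taken to pair them. A paired fit with the replicate number as a block gave 3 members higher in YSJZD against control, 11 higher in cisplatin against control and 6 lower in YSJZD against cisplatin. With 1 library left out, members called ranged from 10 to 12 higher and 10 to 13 lower in cisplatin against control, 3 to 6 higher and 4 to 10 lower in YSJZD against cisplatin, and 1 to 3 higher and 1 to 4 lower in YSJZD against control. All genes called in YSJZD against control, 2694 with every library, ranged from 1607 to 2242, the fewest without control replicate 1 and 1692 without control replicate 2. Of the transcript shares, 4 shifts with cisplatin moved by more than the control SD when taken from FPKM, namely Ctsb NM_007798 (-2.07 percentage points in place of -4.14) and XM_017315833 (2.07 in place of 4.14), Lamp2 NM_001017959 (1.33 in place of 2.27) and Tfeb XM_006524007 (30.7 in place of 29.1). Shares from FPKM also divide by length, and a run with 1 library left out has fewer samples. The causes of the differences between runs were not tested. Depth allowed every member to be tested.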
